A study of Homo sapiens with 18 samples.

Results

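The genes described here are 10 genes of Notch signalling: the receptors NOTCH1, NOTCH2 and NOTCH3, the ligands JAG1 and DLL1, the coactivator MAML1, and the target genes HES1, HES4, HEY1 and NRARP. They were picked by gene symbol from the 56269 genes of the expression table, and all 10 symbols had a row. The cells were IMR90, primary fibroblasts from human lung. Their pre-incubation lasted 6 h and used either PBS or hyaluronan (HA) purified from naked mole-rat skin fibroblasts (NSF), at 20 μg/ml. cNSF-HA was HA heated with an inactivated hyaluronidase, which leaves the polymer intact, and fNSF-HA was partially fragmented by the active enzyme. In each pre-incubation, 3 libraries came from cells collected when it ended. For the other 3 the HA or PBS was removed. Those cells next received the oxidant tert-butyl hydroperoxide (tBHP, 200 μM, for 1 h) and were harvested 6 h after its addition. The 6 groups therefore hold 18 libraries from a single cell line. Cells with tBHP also spent 6 h more in culture than those without, and spent it after the removal of HA or PBS. These effects cannot be told apart in what is called the tBHP response below. The study's methods call its replicates biological without saying whether each was a separate culture, so p-values measure the spread between these libraries.

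Notch receptors are membrane proteins that are cut when a ligand on a neighbouring cell, such as Jagged or Delta, pulls on them. ADAM proteases cut first, gamma-secretase cuts next, and the released intracellular domain enters the nucleus, where it joins the DNA-binding protein RBPJ and a Mastermind coactivator. The complex turns on genes of the HES and HEY repressor family and NRARP, a feedback inhibitor. In fibroblasts the pathway is known for roles in differentiation and matrix production.

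The promoters of NOTCH1 and NOTCH3, which rose with tBHP in every pre-incubation, are shown first. With them are those of HES1, a textbook Notch target, and HES4, the other of these genes with a match to the RBPJ core. RefSeq promoter sequences (GRCh38.p14) were at hand for 8 of the 10 genes. DLL1 and HEY1 had no entry. Except for HES4, only bases upstream of every annotated transcript start are printed. All run 5′ to 3′ on the gene's strand, with TGGGAA, the core recognised by RBPJ, in capitals. The HES1 stretch is chr3:194135898-194136144 (plus strand), the NOTCH1 stretch chr9:136546049-136546298 (minus strand) and the NOTCH3 stretch chr19:15200996-15201245 (minus strand). For HES4 the 30 bases around its match, chr1:1000156-1000185 (minus strand), are given, because that match reaches the first annotated transcript start.
HES1: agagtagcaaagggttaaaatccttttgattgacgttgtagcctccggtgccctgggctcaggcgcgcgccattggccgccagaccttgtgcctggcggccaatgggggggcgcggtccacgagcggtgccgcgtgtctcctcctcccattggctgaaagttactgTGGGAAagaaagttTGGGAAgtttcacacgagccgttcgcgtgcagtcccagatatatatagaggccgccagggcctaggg
HES4: ctggggcgagtgTGGGAAagaatgcggagc
NOTCH1: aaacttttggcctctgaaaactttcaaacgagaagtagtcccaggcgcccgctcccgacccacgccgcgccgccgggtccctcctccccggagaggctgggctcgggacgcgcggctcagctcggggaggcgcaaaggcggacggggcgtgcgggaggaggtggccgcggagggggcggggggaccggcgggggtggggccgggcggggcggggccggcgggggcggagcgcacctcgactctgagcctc
NOTCH3: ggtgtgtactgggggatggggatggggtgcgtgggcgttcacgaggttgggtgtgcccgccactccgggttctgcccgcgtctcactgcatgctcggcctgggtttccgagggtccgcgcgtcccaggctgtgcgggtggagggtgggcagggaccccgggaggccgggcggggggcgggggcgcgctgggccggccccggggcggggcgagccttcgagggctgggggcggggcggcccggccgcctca

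HES1 held 2 matches to TGGGAA within 250 bases before its RefSeq start. They lay at 84 to 79 and at 70 to 65 bases upstream, both on the plus strand of the gene. HES4 held 1, at 76 to 71 bases upstream of its RefSeq start. All but the first base of that match lay inside the gene as annotated in GENCODE 29. On either strand, TGGGAA was found in 2 of the 8 promoters and in 20.8% of all 35116 promoters of the same length. The N-box CACNAG, a motif of HES repressors, was found in 3 of the 8 (HES1 with 3 matches, MAML1 and NOTCH3 with 1 each) and in 32.0% of all promoters. The study searched the letters CCTGCG as a CD44 intracellular domain motif, over longer promoter regions than the 250 bases read here. They were found in 2 of the 8, NOTCH2 and NRARP, and in 20.2% of all promoters. None of these matches in the 8 promoters overlapped another. A match describes letters and is not evidence of a bound site.

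The deposited value of a gene is its reads over the library's size factor, called the normalised read count below. Libraries held 20261103 to 26287660 reads on genes. Differences were tested with limma on log2(value + 1) over the 13686 genes with a mean of at least 10, so the folds of low genes are understated. Of the 10 Notch genes, 8 were tested, and DLL1 and NRARP fell under the minimum. HES1 passed it through its tBHP libraries: its mean was 9.56 over the 9 libraries without tBHP and 22.6 over the 9 with it, so its SEs, intervals and adjusted p-values are given from a fit with no filter, and its tBHP response is left out of the counts. All 10 fibroblast markers were above the minimum by their mean over the 18 libraries. By that mean, so were 3 of 8 epithelial markers (KRT18 with a mean of 1437, KRT8 and KRT19). The same held for 2 of 6 endothelial markers (TEK with a mean of 1131, and VWF), though VWF was at 3.73 in its lowest library. It also held for 4 of 5 smooth muscle and pericyte markers (CSPG4 with a mean of 9110, CNN1, RGS5 and DES), but for none of 6 leukocyte markers. CDH1, KRT5, SFTPC, NKX2-1, PECAM1, CDH5, KDR, CLDN5, PTPRC and CD3E stayed below 5 in every library. The summed epithelial markers ran from 2087 to 2347 without and from 1235 to 2189 with tBHP, the endothelial ones from 1286 to 1461 and from 713 to 1101, the smooth muscle and pericyte ones from 8918 to 9622 and from 7368 to 15383, and the leukocyte ones from 3.73 to 7.82 and from 4.38 to 19.0. Their part in the results was not tested. The libraries after tBHP differed in composition within their groups. Transcripts with at least 61.3% GC were set against their mean over the 9 libraries with tBHP. They lay a median of 0.78 log2 units below it in fNSF-HA replicate 2. In cNSF-HA replicate 3 and PBS replicate 1 they lay 0.33 and 0.31 above it. Transcripts of at least 7723 bases lay 0.34 below their own such mean in cNSF-HA replicate 3 and 0.29 above it in fNSF-HA replicate 2. Transcript GC was 73.9% for HES4, 67.3% for NRARP, 63.1% for NOTCH3 and 62.9% for NOTCH1, and the transcripts of NOTCH2, NOTCH1 and NOTCH3 have 11389, 9306 and 8666 bases. The part of these trends in the results was not tested. Values with the trends removed are given beside some of the main results, and among the other pathway genes only for HDAC2.

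After tBHP, NOTCH1 and NOTCH3 rose in all 3 pre-incubations, and NOTCH2 fell in cNSF-HA and fNSF-HA cells. HES1, at low counts, rose in PBS and cNSF-HA cells in the fit with no filter. In these bulk libraries, fewer expressing cells and less RNA per cell cannot be told apart. In PBS cells 2 of the 7 tested genes other than HES1 passed the test, both higher, where 51.1% of all genes tested passed in either direction and 24.2% were higher. In cNSF-HA cells 3 of the 7 passed, 2 higher and 1 lower, against 50.8% of all genes. In fNSF-HA cells 3 passed, 2 higher and 1 lower, against 41.9%. The shares of Notch genes, 2, 3 and 3 of 7, lie near or below these backgrounds, so the number of Notch genes that moved is not a result about them. Groups with and without tBHP did not overlap for 63.8%, 63.7% and 48.7% of all genes. The median log2 change of the 7 genes was 0.19, 0.045 and 0.14 in PBS, cNSF-HA and fNSF-HA cells, beside medians of 0.0043, -0.00053 and -0.034 over all genes.

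**Figure D1:**
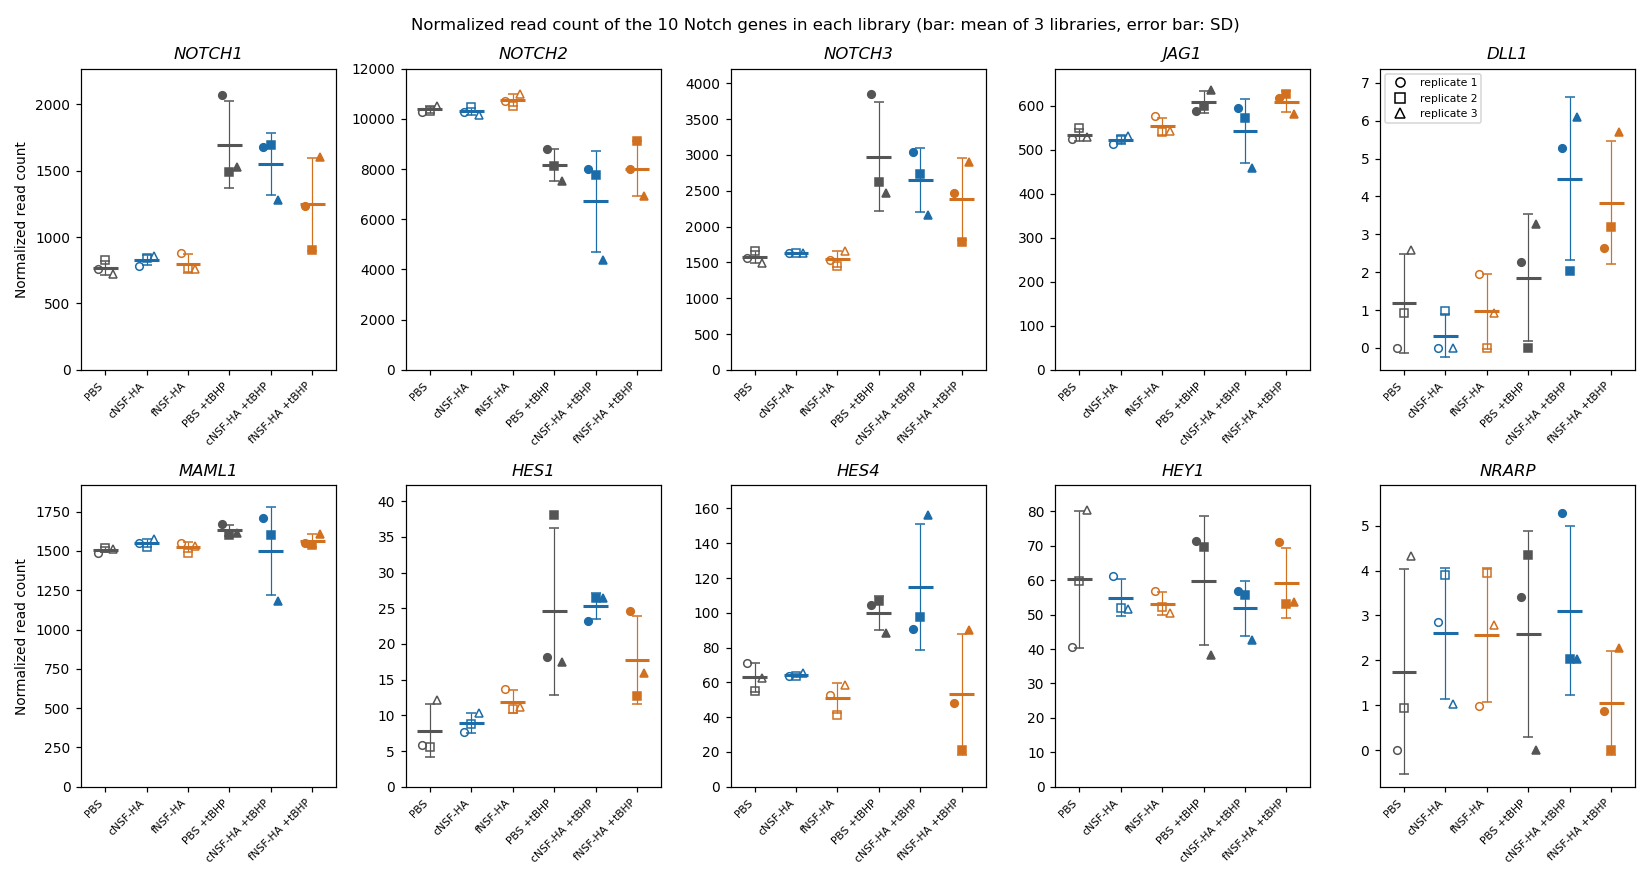
Normalised read count (linear axis) of each of the 10 genes in the 18 libraries, by group; symbols give the replicate, open without and filled with tBHP, bars the mean of 3 libraries and error bars the SD. NOTCH1 and NOTCH3 are higher and NOTCH2 is lower in all 9 libraries with tBHP than in any without, while DLL1 and NRARP stay below 7 throughout.

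Of the receptors, NOTCH1 (chr9:136494433-136545786, minus strand, GRCh38), the founding member of the family, stood at 756, 826 and 723 in PBS replicates 1 to 3 and at 2072, 1490 and 1527 after tBHP. With cNSF-HA it stood at 785, 840 and 859 without and at 1678, 1695 and 1280 with tBHP. With fNSF-HA it stood at 880, 766 and 757 without and at 1236, 899.9 and 1604 with tBHP. All 9 libraries without tBHP lay below all 9 with it, and the closest approach was in fNSF-HA cells, where replicate 2 with tBHP lay just above replicate 1 without. The log2 change was 1.13 ± 0.17 (SE, 2.18-fold, adjusted p = 2.07e-05) in PBS cells. It was 0.89 ± 0.17 (adjusted p = 2.30e-04) in cNSF-HA and 0.60 ± 0.17 (adjusted p = 0.00686) in fNSF-HA cells. With the GC and length trends removed the changes were 0.80, 0.70 and 0.63 and passed in all 3 pre-incubations. In a fit of fNSF-HA libraries alone the change in those cells did not pass (adjusted p = 0.0555), and without fNSF-HA replicate 3 with tBHP it was 0.40 (adjusted p = 0.0381).

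NOTCH3 (chr19:15159038-15200981, minus strand), a receptor best known from vascular mural cells, stood at 1565, 1656 and 1493 in PBS cells and at 3846, 2618 and 2462 after tBHP. In cNSF-HA cells the values were 1626, 1627 and 1625 without and 3046, 2730 and 2163 with tBHP. In fNSF-HA cells they were 1534, 1447 and 1658 without and 2462, 1784 and 2907 with tBHP. The groups with and without tBHP did not overlap in any pre-incubation. NOTCH3 rose by 0.89 ± 0.16 (SE, 1.86-fold, adjusted p = 2.13e-04) in PBS cells, 0.69 ± 0.16 (adjusted p = 0.00209) in cNSF-HA cells and 0.60 ± 0.16 (adjusted p = 0.00701) in fNSF-HA cells on the log2 scale. With the trends removed the changes were 0.56, 0.48 and 0.62, all past the threshold. NOTCH3 and NOTCH1 shared the library with the lowest value after tBHP, fNSF-HA replicate 2, and that with the highest, PBS replicate 1. GC-rich transcripts lay lowest in the former and high in the latter. In cNSF-HA replicate 3 with tBHP, where NOTCH3 and NOTCH1 were the lowest of their group, GC-rich transcripts lay highest and long transcripts, which include both genes, lay lowest.

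NOTCH2 (chr1:119911553-120069626, minus strand) was the most abundant receptor and went the other way. It stood at 10282, 10332 and 10515 in PBS cells and at 8815, 8133 and 7545 after tBHP. With cNSF-HA its counts were 10269, 10460 and 10166 without and 7991, 7755 and 4388 with tBHP. With fNSF-HA they were 10693, 10518 and 10995 without and 8021, 9109 and 6926 with tBHP. All 9 libraries with tBHP lay below all 9 without, and cNSF-HA replicate 3 lay far below the others. The log2 change was -0.35 ± 0.15 (SE) in PBS cells, which did not pass (adjusted p = 0.0673). NOTCH2 fell in cNSF-HA cells (-0.67 ± 0.15, 0.629-fold, adjusted p = 0.00157) and in fNSF-HA cells (-0.43 ± 0.15, adjusted p = 0.032). Without cNSF-HA replicate 3 with tBHP the cNSF-HA change was -0.39 (adjusted p = 0.00151). The PBS change passed without cNSF-HA replicate 1 or 3 with tBHP (adjusted p = 0.0482 and 0.00109), without fNSF-HA replicate 2 or 3 with tBHP (adjusted p = 0.0387 and 0.0476) and with the trends removed (-0.43, adjusted p = 9.24e-05). The fNSF-HA change missed the threshold without fNSF-HA replicate 1 or replicate 3 with tBHP (adjusted p = 0.069 and 0.112) and without any single fNSF-HA library without tBHP (adjusted p = 0.0629 to 0.0836), and in edgeR (adjusted p = 0.0597). NOTCH2 shares near-identical sequence with NOTCH2NL, which had a mean of 18.4 (3.16 to 35.2), and how reads were split between these copies is uncertain.

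**Figure D2:**
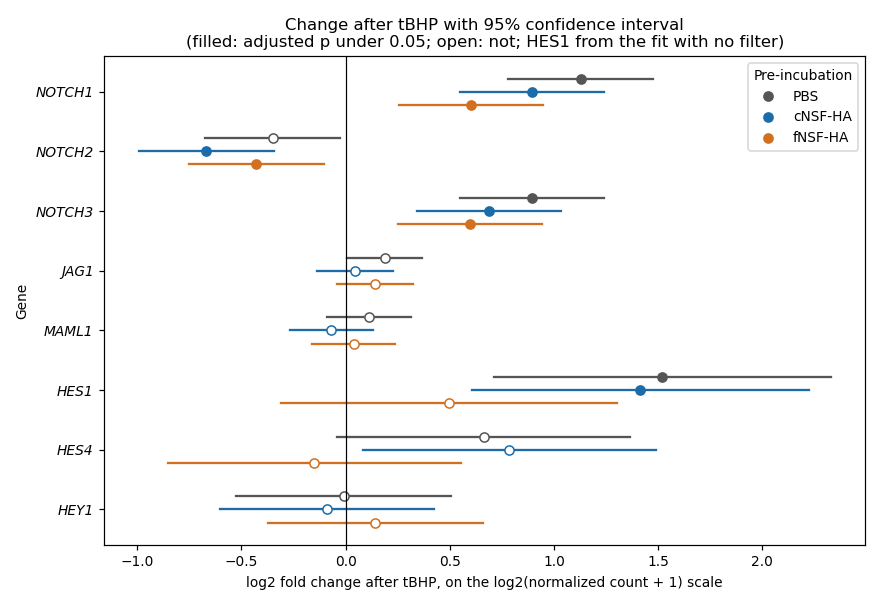
log2 fold change after tBHP (x axis, on the log2(normalised count + 1) scale) for the 8 genes tested, HES1 from the fit with no filter, in PBS, cNSF-HA and fNSF-HA cells; lines are 95% confidence intervals and filled points passed an adjusted p of 0.05. NOTCH1 and NOTCH3 lie to the right of 0 and NOTCH2 to the left in all 3 pre-incubations, and HES1 has an interval above 0 in PBS and cNSF-HA cells.

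Neither ligand gave a call in the test with the low-count filter. JAG1 (chr20:10637684-10673999, minus strand), which encodes Jagged1, stood at 524, 550 and 529 in PBS cells and at 589, 599.9 and 637 after tBHP. Its counts with cNSF-HA were 512, 525 and 530 without and 594, 573 and 459 with tBHP, and those with fNSF-HA were 576, 540 and 543 without and 618, 628 and 582 with tBHP. The values with tBHP lay above those without in PBS and fNSF-HA cells and overlapped in cNSF-HA cells, where replicate 3 was lowest. The log2 changes were 0.19 (95% CI 0.0050 to 0.37, adjusted p = 0.0801), 0.045 (-0.14 to 0.23) and 0.14 (-0.04 to 0.32). edgeR on recovered reads gave 0.25 in PBS cells, which passed (adjusted p = 0.0174), as did limma without cNSF-HA replicate 3 with tBHP (adjusted p = 0.0186). An antisense gene lies across JAG1, and the library kit does not mark strand, so their reads cannot be told apart.

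DLL1 (chr6:170282206-170306565, minus strand), which encodes a Delta-like ligand, was near the limit of detection. It had 0, 1 and 3 reads in the PBS libraries and 2, 0 and 3 after tBHP. In cNSF-HA cells it had 0, 1 and 0 reads without and 5, 2 and 6 with tBHP, and in fNSF-HA cells 2, 0 and 1 without and 3, 3 and 5 with tBHP. The groups did not overlap in cNSF-HA and fNSF-HA cells and overlapped in PBS cells, on 8 reads over the 9 libraries without and 29 over the 9 with tBHP. In a fit with no filter the cNSF-HA change passed (adjusted p = 0.0193) and the other 2 did not (adjusted p = 0.815 in PBS and 0.146 in fNSF-HA cells). A library with 0 reads allows up to 3, which is 2.59 to 3.42 on the normalised scale, for counting error only.

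MAML1 (chr5:179732850-179777286, plus strand), the Mastermind coactivator of the Notch complex, had like counts in most libraries. It stood at 1490, 1519 and 1515 in PBS cells and at 1672, 1604 and 1616 after tBHP. MAML1 had 1551, 1527 and 1574 without and 1710, 1604 and 1180 with tBHP after cNSF-HA, and after fNSF-HA 1552, 1488 and 1533 without and 1549, 1536 and 1610 with tBHP. Apart from cNSF-HA replicate 3 with tBHP, all libraries lay between 1488 and 1710. The log2 changes of 0.11 ± 0.10, -0.07 ± 0.10 and 0.04 ± 0.10 (SE) did not pass (adjusted p = 0.339, 0.57 and 0.78). With the trends removed the cNSF-HA change was -0.20 and passed (adjusted p = 0.0182), while the signs in PBS (-0.11) and fNSF-HA cells (-0.02) turned without passing.

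Among the targets, HES1 (chr3:194136145-194138732, plus strand), the repressor whose 2 TGGGAA matches are printed above, was measured at low counts. It had 5.79, 5.60 and 12.1 in PBS cells and 18.2, 38.1 and 17.5 after tBHP, from 26 and 67 reads over the groups. In cNSF-HA cells it had 7.63, 8.80 and 10.3 without and 23.2, 26.4 and 26.4 with tBHP, from 27 and 74 reads. In fNSF-HA cells it had 13.7, 10.8 and 11.2 without and 24.6, 12.8 and 15.9 with tBHP, from 37 and 54 reads. The values with tBHP lay above those without in PBS and cNSF-HA cells, and overlapped in fNSF-HA cells through replicate 2. In limma with no filter, over the 31441 genes with a read, HES1 rose by 1.52 ± 0.39 (SE, 2.87-fold, adjusted p = 0.00635) in PBS cells and by 1.41 ± 0.39 (2.67-fold, adjusted p = 0.0111) in cNSF-HA cells. With fNSF-HA the change was 0.50 ± 0.39 (adjusted p = 0.488), and it leaned on replicate 1 with tBHP, at 24.6 against 12.8 and 15.9. With the trends removed the 3 changes were 1.40, 1.24 and 0.37.

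HES4 (chr1:998962-1000172, minus strand), a HES family repressor with no mouse counterpart, spread from 21.3 to 90.0 between the fNSF-HA replicates after tBHP. It stood at 71.5, 55.1 and 62.3 in PBS cells and at 104, 107 and 88.6 after tBHP. After cNSF-HA, HES4 stood at 63.9, 63.5 and 65.1 without and at 90.7, 97.4 and 157 with tBHP. After fNSF-HA, it stood at 53.0, 41.4 and 58.7 without and at 48.2, 21.3 and 90.0 with tBHP. The groups were separate in PBS and cNSF-HA cells, and with fNSF-HA the tBHP libraries reached both below and above those without. The log2 changes were 0.66 (95% CI -0.04 to 1.36, adjusted p = 0.107), 0.79 (0.08 to 1.49, adjusted p = 0.058) and -0.15 (-0.85 to 0.55, adjusted p = 0.75). Without fNSF-HA replicate 2 or replicate 3 with tBHP, which enter these changes only through the shared spread, the PBS change passed (adjusted p = 0.0132 and 0.0275), as did the cNSF-HA change (adjusted p = 0.00415 and 0.0105) and, in edgeR and DESeq2, the cNSF-HA change (adjusted p = 0.0182 and 0.0146). With the trends removed they were 0.16 and 0.23 and did not pass.

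HEY1, a HES-related repressor, stood at 40.6, 59.7 and 80.4 in PBS cells and at 71.5, 69.7 and 38.3 after tBHP. HEY1 had 61.1, 51.8 and 51.7 without and 56.9, 55.8 and 42.7 with tBHP after cNSF-HA, and after fNSF-HA 56.9, 52.2 and 50.3 without and 71.0, 53.2 and 53.5 with tBHP. The groups overlapped in every pre-incubation, and the PBS replicates spanned the whole range. The log2 changes were -0.01 (95% CI -0.52 to 0.50), -0.09 (-0.60 to 0.43) and 0.14 (-0.37 to 0.66). NRARP (chr9:137300482-137302251, minus strand), the feedback inhibitor, had 0 to 5 reads in every library, with 22 reads over the 9 libraries without and 19 over the 9 with tBHP. A change in it was not detectable at this depth.

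The HA pre-incubations were compared after tBHP to ask whether HA polymer length bears on these genes. None of the 8 passed between cNSF-HA and fNSF-HA cells, where 0% of the 13686 genes passed in limma, 4412 had an unadjusted p under 0.05, edgeR called 0 and DESeq2 called 793. Without fNSF-HA replicate 3 limma called 5586 genes, and without replicate 2 it called 0. HES4 differed most, at 90.7, 97.4 and 157 in cNSF-HA against 48.2, 21.3 and 90.0 in fNSF-HA cells. These groups did not overlap, as was so for 13.4% of all genes. The log2 difference was 1.28 (95% CI 0.58 to 1.98, adjusted p = 0.0981). HES4 passed in DESeq2 on recovered reads (1.12, adjusted p = 0.0309) and without fNSF-HA replicate 3 (1.76, adjusted p = 0.00115). It was 0.75 (adjusted p = 0.572) without fNSF-HA replicate 2 and 0.40 (adjusted p = 0.199) with the GC and length trends removed. NOTCH1 differed by 0.34 (95% CI -0.0043 to 0.69, adjusted p = 0.158), with overlapping groups, and by 0.03 with the trends removed. Without fNSF-HA replicate 3 NOTCH1 differed by 0.54 and passed (adjusted p = 0.00871), and without replicate 2 it differed by 0.13 (adjusted p = 0.742). HES1 differed by 0.54 (-0.27 to 1.34), or 0.34 without fNSF-HA replicate 2, and NOTCH2 by -0.30 (-0.62 to 0.03), or -0.018 without cNSF-HA replicate 3 and -0.19 with the trends removed. For the other 4 genes the differences ran from -0.19 for HEY1 to 0.16 for NOTCH3.

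**Figure D3:**
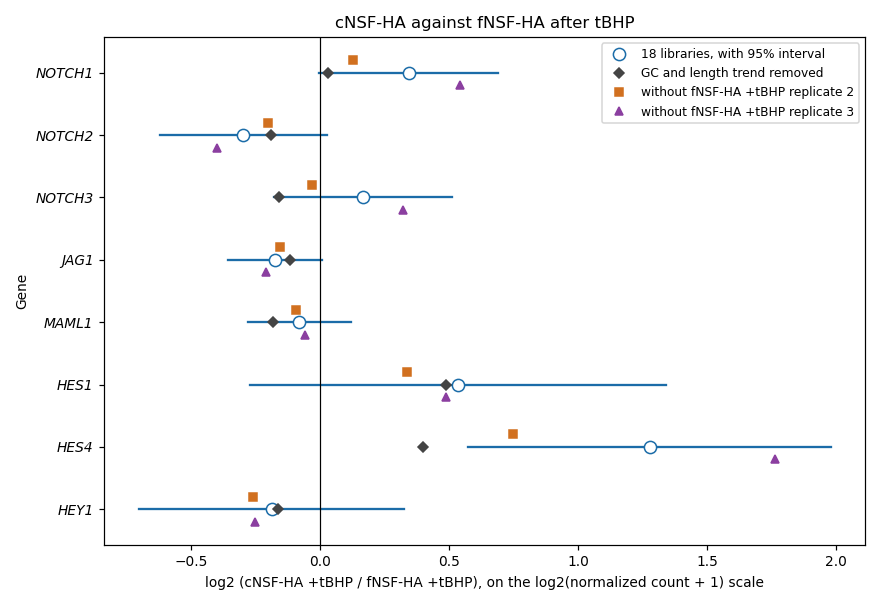
log2 difference of cNSF-HA over fNSF-HA after tBHP (x axis, on the log2(normalised count + 1) scale) for the 8 genes tested: open circles with 95% confidence intervals from the fit of 18 libraries (HES1 with no filter), diamonds with the GC and length trends removed, and squares and triangles without fNSF-HA replicate 2 or 3. HES4 moves from 1.28 to 0.40 with the trends removed, to 0.75 without replicate 2 and to 1.76 without replicate 3, and NOTCH1 from 0.34 to 0.03, 0.13 and 0.54.

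Fragmented HA and PBS differed after tBHP in 0.139% of genes in limma, and in none of the 8. Limma gave 19 calls and 3102 genes with an unadjusted p under 0.05, edgeR called 36 and DESeq2 451. With 1 library left out the limma calls ran from 0 to 4024. They were 4024, 171 and 159 without fNSF-HA replicate 3, PBS replicate 2 or cNSF-HA replicate 3 with tBHP, and 0 to 8 without any other single library of the 18. HES4 was 1.12 log2 units lower in fNSF-HA than in PBS cells in the fit (95% CI -1.82 to -0.41, adjusted p = 0.114), with overlapping groups. NOTCH1 differed by -0.47 (-0.81 to -0.12, adjusted p = 0.142), HES1 by -0.41 (-1.21 to 0.40) and NOTCH3 by -0.32 (-0.67 to 0.03, adjusted p = 0.25). The other 4 lay between -0.06 for MAML1 and 0.03 for HEY1. Without fNSF-HA replicate 3, HES4, NOTCH1 and NOTCH3 passed (-1.60, -0.67 and -0.48, adjusted p = 0.00196, 0.00485 and 0.034). Leaving out fNSF-HA replicate 2 gave -0.59, -0.25 and -0.12, which did not pass (adjusted p = 0.455, 0.619 and 0.858). NOTCH3 was also -0.12 without PBS replicate 1, and HES1 was -0.055 without PBS replicate 2. With the trends removed and all libraries kept they were -0.40, -0.08 and 0.07, and none passed. Between cNSF-HA and PBS cells after tBHP the 8 differences ran from -0.33 for NOTCH2 (adjusted p = 0.575) to 0.16 for HES4, and none passed, where 0% of all genes did in limma, 1183 had an unadjusted p under 0.05, edgeR called 0 and DESeq2 9. Without cNSF-HA replicate 3 NOTCH2 differed by -0.050. These 3 comparisons share libraries in pairs.

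Without tBHP no Notch gene passed between pre-incubations, where 0% of all genes passed in each of the 3 comparisons in limma and 206, 126 and 109 had an unadjusted p under 0.05 (cNSF-HA against fNSF-HA, cNSF-HA against PBS and fNSF-HA against PBS). edgeR called 0 genes in each, and DESeq2 called 0, 0 and 3. When only the libraries of the groups compared were fitted, limma called 980, 0 and 21 genes, none of them among the 8. Groups did not overlap for 4 of the 8 between cNSF-HA and fNSF-HA cells, with NOTCH2, JAG1 and HES1 lower and HES4 higher with cNSF-HA, where 25% of all genes did not. MAML1 was the 1 such gene between cNSF-HA and PBS cells (higher with cNSF-HA, 15.2% of all genes), and NOTCH2 between fNSF-HA and PBS cells (higher with fNSF-HA, 14% of all genes). HES1 differed by 0.62 (95% CI -0.19 to 1.42) for fNSF-HA against PBS, 0.24 (-0.57 to 1.04) for cNSF-HA against PBS and -0.38 (-1.19 to 0.42) for cNSF-HA against fNSF-HA. For HES4 they were 0.34 (-0.36 to 1.04) for cNSF-HA against fNSF-HA and -0.30 (-1.01 to 0.40) for fNSF-HA against PBS. Without fNSF-HA replicate 2 the HES4 differences were 0.20 and -0.16, and with the trends removed 0.07 and -0.15. HES1 for fNSF-HA against PBS was 0.94 without PBS replicate 3. That library held the highest HES1 value of the PBS cells (12.1, against 5.79 and 5.60), so HES1 for cNSF-HA against PBS depended on it too. For NOTCH1, NOTCH2, NOTCH3, JAG1, MAML1 and HEY1 every difference without tBHP was at most 0.13 in size. The intervals reached 1.42 in size for HES1 and 1.04 for HES4.

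Whether the tBHP response itself depended on the pre-incubation was tested as a difference between responses, and none of the 8 genes passed. Across all genes 0% passed in each of the 3 differences in limma, with 555, 942 and 533 at an unadjusted p under 0.05 (cNSF-HA minus PBS, fNSF-HA minus PBS and cNSF-HA minus fNSF-HA), where edgeR called 0 each and DESeq2 0, 6 and 0. The response in fNSF-HA cells minus that in PBS cells was -0.81 for HES4 (95% CI -1.81 to 0.18) and -0.53 for NOTCH1 (-1.02 to -0.03), each with adjusted p = 0.667. For HES1 it was -1.02 (-2.17 to 0.12, adjusted p = 0.766). For NOTCH3 it was -0.29 (-0.78 to 0.19). With the trends removed these were -1.03 for HES1, -0.25 for HES4, -0.16 for NOTCH1 and 0.067 for NOTCH3. Leaving out fNSF-HA replicate 2 with tBHP gave -0.28 for HES4, -0.31 for NOTCH1 and -0.10 for NOTCH3, and leaving out its replicate 3 gave -1.30 for HES4 and -0.45 for NOTCH3. Without PBS replicate 2 with tBHP HES1 was -0.67, and without PBS replicate 1 with tBHP NOTCH3 was -0.095. The response in cNSF-HA minus that in fNSF-HA cells was 0.92 for HES1 (-0.22 to 2.06, adjusted p = 0.772) and 0.94 for HES4 (-0.06 to 1.93, adjusted p = 0.71). HES4 was 0.33 with the trends removed, and 0.41 and 1.42 without fNSF-HA replicate 2 or 3 with tBHP. The response in cNSF-HA minus that in PBS cells ran from -0.32 for NOTCH2 to 0.12 for HES4, and NOTCH2 was -0.039 without cNSF-HA replicate 3 with tBHP and -0.13 with the trends removed. That HES1 passed in PBS and cNSF-HA cells and not in fNSF-HA cells is thus no shown difference between them.

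Levels were set side by side per kilobase of the longest annotated transcript. In PBS cells without tBHP the order was NOTCH2 at 911 ± 11 (SD, n = 3) normalised counts per kilobase, MAML1 at 264 ± 2.8, NOTCH3 at 181 ± 9.5, JAG1 at 89.96 ± 2.3, NOTCH1 at 82.6 ± 5.6, HES4 at 60.5 ± 7.9, HEY1 at 26.2 ± 8.7, HES1 at 4.96 ± 2.3, NRARP at 0.99 ± 1.3 and DLL1 at 0.37 ± 0.41. The libraries of JAG1 and NOTCH1, and those of NRARP and DLL1, overlapped, and the other neighbours did not. In PBS cells after tBHP the order of receptors was the same, with NOTCH2 at 717 ± 56, NOTCH3 at 343 ± 87 and NOTCH1 at 182 ± 35. NOTCH3 stood above MAML1 (285 ± 6.3) by the mean, with overlapping libraries, and NOTCH1 stood above JAG1 (102 ± 4.2). Over all annotated exon bases instead, NOTCH1 (74.0 ± 5.1) stood above JAG1 (57.5 ± 1.4) in PBS cells without tBHP with no overlap, JAG1 and HES4 (56.3 ± 7.4) overlapped, and HES4 (89.4 ± 8.8) stood above JAG1 (65.4 ± 2.7) after tBHP.

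The rest of the pathway was read from a list of 63 genes by role, of which 51 were tested. In PBS cells 17 rose, 13 fell and 21 did not pass, in cNSF-HA cells 13 rose, 15 fell and 23 did not pass, and in fNSF-HA cells 14 rose, 13 fell and 24 did not pass. That is 58.8%, 54.9% and 52.9% of the list, beside the 51.1%, 50.8% and 41.9% of all genes. Median changes were 0.13, 0.09 and -0.06. In all 3 responses 11 genes rose and 9 fell. The like share of all genes was not worked out, so these counts are no result about the list.

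Of the proteases, ADAM17, a sheddase of many membrane proteins, rose by 0.56, 0.43 and 0.59 log2 units in PBS, cNSF-HA and fNSF-HA cells, while ADAM10, the main protease of ligand-triggered cleavage, fell in PBS (-0.40) and cNSF-HA cells (-0.48) and was -0.28 in fNSF-HA cells (adjusted p = 0.0678). Of the gamma-secretase genes, PSENEN, a subunit of the complex, rose in all 3 (by 0.58, 0.40 and 0.33), and PSEN2, another subunit, fell in all 3. PSEN2 stood at 276, 244 and 260.3 in PBS cells and at 162, 124 and 129 after tBHP, and its log2 changes were -0.91, -0.89 and -0.95. Of the transcription complex, RBPJ, the DNA-binding partner of the receptors' intracellular domain, stood at 3632, 3828 and 3908 in PBS cells and at 1846, 2758 and 2268 after tBHP. RBPJ fell in all 3 pre-incubations (-0.74, -0.82 and -0.56, adjusted p = 1.87e-04, 7.89e-05 and 0.00295). The acetyltransferase KAT2B also fell in all 3, while the Mastermind family member MAML3 rose by 0.56, 0.50 and 0.56 and SNW1 rose by 0.27, 0.31 and 0.38.

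Of the genes of receptor trafficking and turnover, NUMB, an endocytic inhibitor of Notch, stood at 2515, 2482 and 2604 in PBS cells and at 4306, 4660 and 4648 after tBHP. It rose by 0.84, 0.78 and 0.89, and its relative NUMBL by 1.34, 1.12 and 0.98, the largest rise of the list in PBS cells. DTX3 rose and DTX3L fell in all 3. Of the ligands outside the 10 genes, DLL4, a Delta ligand of endothelium, fell by 0.85, 0.59 and 0.83, from 101, 86.8 and 81.3 to 54.5, 53.3 and 40.5 in PBS cells. The summed endothelial markers, given above, were also lower in every library with tBHP than in any without. That sum was nearly all TEK, with a mean of 1131. VWF was at most 24.97 in any library, and PECAM1, CDH5, KDR and CLDN5 stayed below 5. The sum therefore shows no shared fall of endothelial markers. POGLUT1, which adds glucose to the receptors' EGF repeats, fell in all 3 (by 0.81 in PBS cells). Of the corepressors, CIR1 and CTBP2 rose and TLE1, TLE4 and HDAC2 fell in all 3, but with the GC and length trends removed HDAC2 turned to 0.23 in cNSF-HA and 0.01 in fNSF-HA cells. BHLHE40, a stress-responsive relative of the HES repressors, rose by 0.61, 0.59 and 0.59. HES5, HEY2 and HEYL stayed below 5 in every library. Some of these calls were lost with 1 library left out. MAML3 missed the threshold in PBS cells without replicate 3 before tBHP (0.44, adjusted p = 0.0504), and in cNSF-HA cells without replicate 2 before tBHP (0.47, adjusted p = 0.0523) or without replicate 1 or 2 with tBHP (0.32 and 0.44, adjusted p = 0.105 and 0.0579). DLL4 missed it in cNSF-HA cells without replicate 1 or 3 before tBHP (-0.52 and -0.54, adjusted p = 0.0995 and 0.0946) or replicate 2 or 3 with tBHP (-0.60 and -0.44, adjusted p = 0.0578 and 0.142). In fNSF-HA cells PSENEN missed it without replicate 3 with tBHP (0.26, adjusted p = 0.0524), and DTX3 without replicate 1 or 3 with tBHP (0.32 and 0.28, adjusted p = 0.0636 and 0.0615). DTX3L in cNSF-HA cells was -0.38 without replicate 3 with tBHP, from -0.59. In limma none of the 51 passed between pre-incubations or in a difference between responses.

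**Figure D4:**
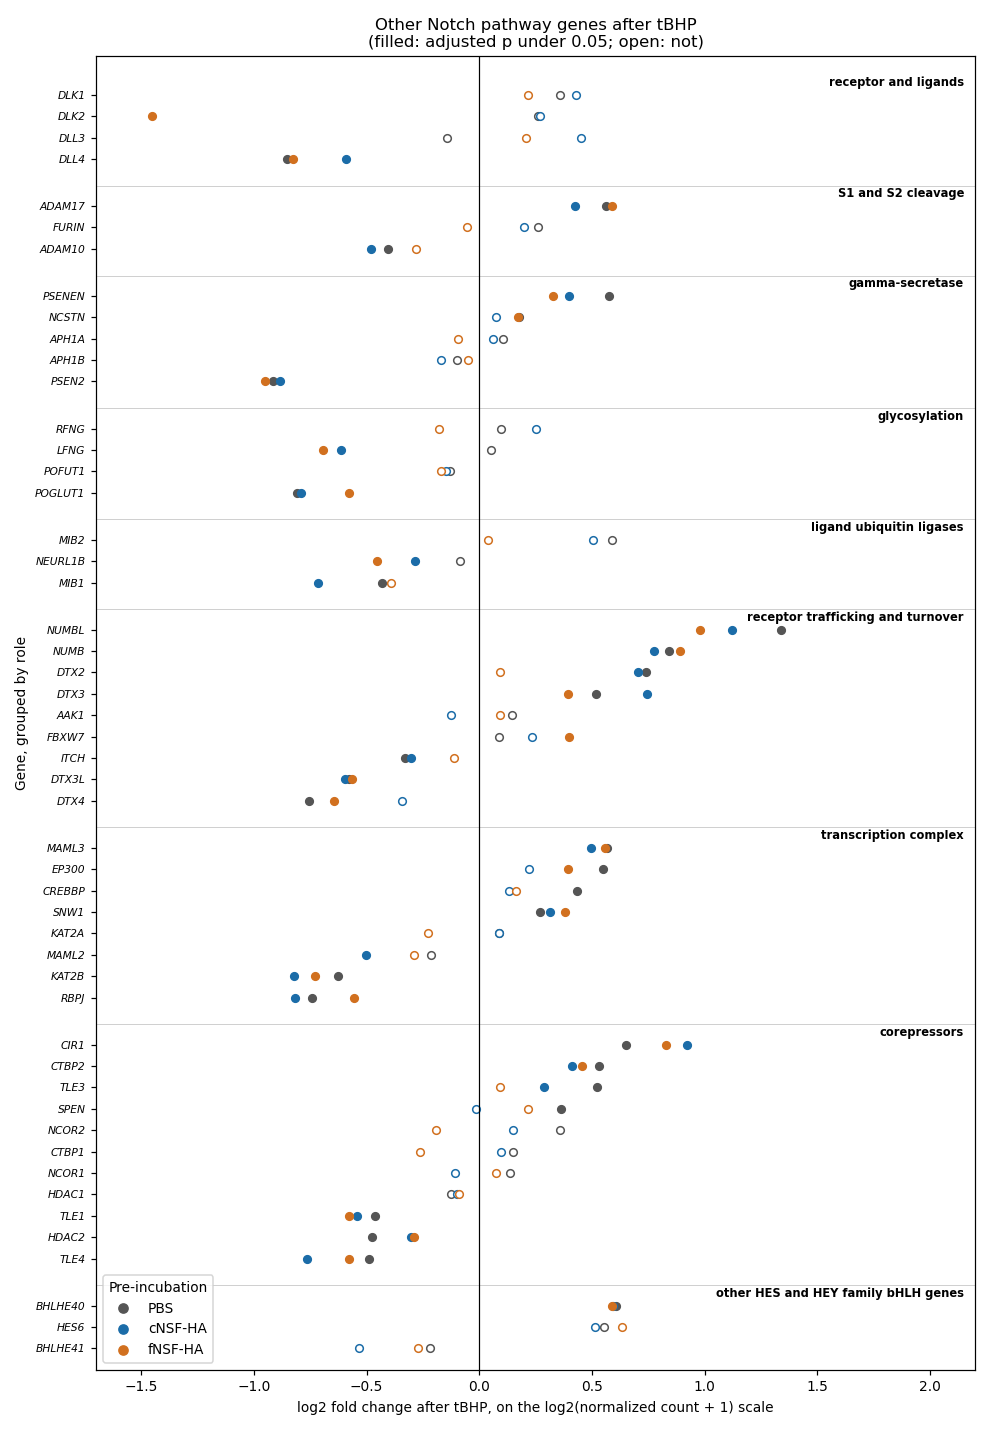
log2 fold change after tBHP (x axis, on the log2(normalised count + 1) scale) of the tested genes of the pathway list, but for 1 gene not reported here, grouped by role, in PBS, cNSF-HA and fNSF-HA cells; filled points passed an adjusted p of 0.05. Within a role genes lie on both sides of 0, as PSENEN and PSEN2 among gamma-secretase genes and NUMB and DTX3L among turnover genes.

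The genes whose log2 values followed each Notch gene most closely were picked and ordered by Pearson r over all 18 libraries. Because the libraries fall apart by tBHP, r is given within the 9 libraries after tBHP and the 9 without, as a description. These values can order the genes otherwise. NOTCH1 was most like SAMD4B (Pearson r = 0.97 after and 0.56 without tBHP), NUMA1 (0.98 and 0.21) and ZNF646 (0.97 and 0.51). NOTCH3 was most like ECE1 (0.995 and 0.49), NUMA1 (0.96 and 0.74) and KANK2 (0.97 and 0.51). NOTCH1 and NOTCH3 followed each other with r = 0.95 after and 0.34 without tBHP. NOTCH2 was most like SYNE1 (0.98 and 0.62), HEG1 (0.99 and 0.25) and PTPRG (0.97 and 0.83). HES4 was most like FAAP20 (0.98 and 0.89), HMG20B (0.98 and 0.95) and SSBP4 (0.98 and 0.73). HES1 was most like TGFB3 (0.49 and 0.71), TARS2 (0.45 and 0.85) and SUOX (0.86 and 0.41), and JAG1 most like B4GALT5 (0.93 and 0.86), ATP2A2 (0.92 and 0.60) and CREB3L2 (0.92 and 0.66). MAML1 was most like SNRNP200 (0.97 and -0.15), PIP4K2B (0.98 and -0.13) and ARID1A (0.94 and 0.45), and HEY1 most like ELF2 (0.84 and 0.60), RP11-547D13.1 (0.63 and 0.92) and CTD-2649C14.2 (0.60 and 0.82). These points share libraries, and the GC and length trends differ most between libraries after tBHP.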

How the data were processed

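RNA from 18 libraries in 6 groups of 3 was sequenced by the authors (TruSeq RNA V2 kit, single-end reads of 100 nt). Per the submitters' processing notes, Trimmomatic 0.32, STAR 2.5.2b, featureCounts of Subread 1.5.0-p3, DESeq2 and build GRCh38.p7 were used, and the annotation is not given in the sources used here. The deposited signal is reads per gene divided by the library's size factor. Multiplied back, 100.0% of values in every library gave whole reads (within 0.01), which were used where reads are named. Deposited p-values, q-values and ranks (3 columns) were not used.

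From these values limma 3.58.1 (R 4.3.3) was run with a mean-variance trend on log2(value + 1), with 1 coefficient per group over all 18 libraries, on the 13686 genes with a mean of at least 10, two-sided, with Benjamini-Hochberg adjustment over all of them and a threshold of 0.05, for 12 comparisons. The authors' methods used DESeq2, and DESeq2 1.42.0 and edgeR 4.0.16 were run on recovered reads as alternatives, beside pseudocounts of 0.1 and 5, no filter, a minimum of 50, rescaling, a replicate block, only the groups compared, each library left out, and GC and length trends removed (91.6% of the genes tested had both). Scripts were tested on simulated data. Gene coordinates are from GENCODE 29 (GRCh38), and promoter sequences are from RefSeq. The text names all 10 genes, up to 10 pathway genes that rose and 10 that fell in all 3 responses, and the 3 genes most like each Notch gene. ADAM10, SNW1, HES5, HEY2 and HEYL fall outside this rule and were named after their values were seen. The result of 1 pathway gene is not reported here, though the counts include it. The Notch genes and lists were chosen with earlier results of these data known.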

Additional observations from a re-analysis of the deposited data

How the results depend on the processing

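Every Notch gene count between pre-incubations and in the differences between responses stayed at 0 under all alternatives except those given here, and the counts for the tBHP responses in cNSF-HA and fNSF-HA cells stayed within 1.5 times. In PBS cells the number of Notch genes past the threshold, HES1 left out, was 4 in place of 2 when only the groups compared were fitted, and ranged from 2 to 4 when libraries were left out, reaching 4 without cNSF-HA replicate 3, fNSF-HA replicate 2 or fNSF-HA replicate 3, all with tBHP. These libraries enter that comparison only through the shared spread. For cNSF-HA against fNSF-HA after tBHP the number was 1 in DESeq2 and 0 to 2 with libraries left out. Between fNSF-HA and PBS cells after tBHP it was 0 to 3, the 3 without fNSF-HA replicate 3.

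Signs turned mostly for small changes, none of which passed in the test reported above, with the exception of HDAC2. With the GC and length trends removed, alone or with the replicate block, MAML1 was -0.11 in the PBS and -0.019 in the fNSF-HA response, NOTCH3 was -0.16 for cNSF-HA against fNSF-HA and 0.069 for fNSF-HA against PBS after tBHP (0.067 for the difference between their responses), NOTCH2 0.030, MAML1 0.098 and HEY1 -0.023 for fNSF-HA against PBS, and HDAC2 0.23 in the cNSF-HA and 0.013 in the fNSF-HA response. In edgeR HEY1 was 0.046 in the PBS, MAML1 0.0097 in the cNSF-HA and HES4 0.10 in the fNSF-HA response (0.054 in DESeq2), and JAG1 was -0.014 and HEY1 -0.020 for fNSF-HA against PBS (-0.0066 in DESeq2). The causes were not tested.

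With 1 library left out, values crossed 0 in these ranges. In the responses HES4 ran from -0.64 to 0.38 in fNSF-HA cells, HEY1 from -0.26 to 0.28 in PBS and -0.16 to 0.043 in cNSF-HA cells, JAG1 from -0.026 to 0.16 and MAML1 from -0.17 to 0.095 in cNSF-HA cells. For cNSF-HA against PBS after tBHP HES1 ran from -0.058 to 0.48, HES4 from -0.083 to 0.31, MAML1 from -0.24 to 0.023, NOTCH1 from -0.21 to 0.028 and NOTCH3 from -0.28 to 0.046. For fNSF-HA against PBS HEY1 ran from -0.26 to 0.18, JAG1 from -0.021 to 0.035 and NOTCH2 from -0.13 to 0.069. For cNSF-HA against fNSF-HA MAML1 ran from -0.19 to 0.082 and NOTCH3 from -0.030 to 0.32. The cNSF-HA minus PBS response difference of HES4 ran from -0.12 to 0.27.

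Same-numbered libraries of other groups deviated together with a median r of 0.034 (-0.12 to 0.33, 45 pairs). For other numbers it was -0.017 (-0.43 to 0.42, 90 pairs). These values cannot show whether same-numbered libraries were handled together, which the sources do not say. The replicate block called 7228, 7176 and 5944 genes in the 3 responses, and under it NOTCH2 in PBS cells (-0.35, adjusted p = 0.0412) and HES4 in cNSF-HA cells (0.79, adjusted p = 0.0355) passed, and HES4 between cNSF-HA and fNSF-HA cells did not (1.28, adjusted p = 0.0644).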
